A study of Mus musculus with 16 samples.

Results

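The 8 genes described here encode proteins that restrain bone morphogenetic protein (BMP) signaling inside the cell or at its membrane, together with *Smad9*: *Smad6*, *Smad7*, *Smad9*, *Bambi*, *Smurf1*, *Smurf2*, *Tob1* and *Ppm1a*. They were taken by name as 8 of the 56748 genes of the count table, and all 8 had reads in every sample. Of these, 3 genes (*Smad6*, *Smad7* and *Smad9*) were selected on measured values, since their higher counts with *gdf6Y* in these samples were known when the genes were chosen. Their differences between *gdf6Y* and either control are therefore given as a description, without a test. The other 5 genes were tested in each comparison, and all 8 were tested between the controls. Earlier results of these data were known when all 8 were chosen, so no test is fully independent of the choice.

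TM4 is an established line of Sertoli-like cells from the mouse testis, used here as a model of the somatic cells that support germ cells. All samples received 2.5 µg of plasmid DNA per well with Lipofectamine, and RNA was isolated 24 h later. The groups were an empty vector (EV, pcDNA3.1-HA, 6 samples), a plasmid expressing *gdf6Y*, the killifish gene for a BMP-type ligand (5 samples), and a plasmid for the *gdf6Y* mutant variant del9, which has a short in-frame deletion in the part that encodes the prodomain (5 samples). The study asked which genes respond to Gdf6Y, and in these samples the ligand came from another species and from a vector promoter. The samples here are of a single cell line. The study also used human HeLa cells and a further human line, which are not among these samples.

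BMP ligands bind pairs of type I and type II receptor kinases, which phosphorylate the receptor-regulated Smads *Smad1*, *Smad5* and *Smad9*. These join *Smad4*, enter the nucleus and switch on targets such as the *Id* genes. The inhibitory Smads *Smad6* and *Smad7* are themselves classical targets of the pathway and close a feedback loop, as they occupy the activated receptors and bring the ubiquitin ligases Smurf1 and Smurf2 to them. Bambi is a membrane pseudoreceptor without a kinase domain, Tob1 binds receptor-regulated Smads in the nucleus, and Ppm1a is a phosphatase that removes phosphate from Smads.

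The stretch before the start site is shown for *Smad6* and *Smad9*, which were higher with *gdf6Y*, and for *Smurf2*, a gene of the same pathway whose counts overlapped between all groups. The RefSeq promoter table of GRCm38.p6 (250 bases before to 50 after each start) matched 6 of the 8 genes, all but *Smad7* and *Bambi*. GRCm38.p6 is an earlier build than GRCm39, on which the reads were counted. Capitals mark GTCTAGAC, the palindrome bound by Smad3 and Smad4, in *Smad6* (chr9:64022056-64022309, minus strand), and GGCGCC, a GC-rich motif of BMP-responsive enhancers, in *Smad9* (chr3:54755332-54755581, plus strand) and *Smurf2* (chr11:106920716-106920965, minus strand).

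Smad6: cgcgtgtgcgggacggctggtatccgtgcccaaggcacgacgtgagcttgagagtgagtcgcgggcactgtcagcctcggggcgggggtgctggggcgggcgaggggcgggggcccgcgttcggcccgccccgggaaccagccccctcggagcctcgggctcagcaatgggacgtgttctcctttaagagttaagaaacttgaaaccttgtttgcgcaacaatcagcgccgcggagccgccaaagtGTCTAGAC

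Smad9: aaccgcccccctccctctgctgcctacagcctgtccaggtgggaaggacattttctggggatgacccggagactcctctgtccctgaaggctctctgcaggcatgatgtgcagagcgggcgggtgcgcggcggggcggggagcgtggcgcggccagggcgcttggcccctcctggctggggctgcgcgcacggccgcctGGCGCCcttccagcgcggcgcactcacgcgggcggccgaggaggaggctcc

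Smurf2: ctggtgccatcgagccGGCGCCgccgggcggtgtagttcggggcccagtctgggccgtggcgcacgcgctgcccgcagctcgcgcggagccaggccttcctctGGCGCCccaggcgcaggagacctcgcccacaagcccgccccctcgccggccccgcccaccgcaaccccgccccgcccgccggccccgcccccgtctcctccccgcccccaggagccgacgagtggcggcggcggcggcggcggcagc

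The palindrome GTCTAGAC spanned the start site of *Smad6*, from position -4 to 4, and 0.213% of the 32851 promoters of the table held it. GGCGCC lay 51 bases before the start of *Smad9* and occurred 2 times before that of *Smurf2*, and 11.9% of all promoters held it. All motifs were searched on both strands of the 300 bases, and 2 more were included. GCCGNCGC was found in *Smad9*, *Smurf1* and *Smurf2* and in 9.76% of all promoters, and 1 of its matches in *Smurf2* overlapped a GGCGCC. The short Smad box CAGAC was found in *Smurf1*, *Smurf2* and *Tob1*, in 49.6% of all promoters, and in neither *Smad6* nor *Smad9*. *Ppm1a* held none of the 4 motifs. The GC content of the 6 promoters was between 66.3% and 80.3%, above the median of 52.7% of the table. No motif was found in both *Smad6* and *Smad9*, and a match of letters is not a bound site.

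Between 21486850 and 26444903 reads per sample were counted on genes. Of 10 Sertoli cell markers, *Wt1* and *Dmrt1* had no reads, and *Fshr* and *Cldn11* had 1 read each over all samples. *Amh* had 3 to 13 counts per sample. *Gata4* (mean 831 with EV) and *Kitl* (707) made up most of the list. The normalized counts of the whole list summed to 1681 to 1769 per sample with EV, 1495 to 1619 with *gdf6Y* and 1570.4 to 1734 with del9. The 3 granulosa cell markers and 3 of 5 Leydig cell markers had no read, and the 2 germ cell markers summed to at most 4.29. The Leydig cell marker *Star* had 12 to 34 counts per sample, and *Cyp11a1* had 2 reads over all samples. A list of 8 interferon-stimulated genes, included because transfected DNA can induce them, gave sums of 17383 to 20116 with EV, 15359 to 17337 with *gdf6Y* and 15389.7 to 17193 with del9. Both sums were thus lower in every *gdf6Y* sample than in every EV sample, as was the interferon sum in every del9 sample, and their part in the differences below was not tested. In lysates of whole wells, a change in the share of cells that took up plasmid and a change in RNA per cell cannot be told apart.

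Per exonic length, the ubiquitin ligases were the most abundant of the 8 genes and *Smad9* the least. In EV samples, CPM (counts scaled to the same total in each sample) per kilobase of exon were 17.1 ± 0.542 (SD, n = 6) for *Smurf2*, 14.6 ± 0.421 for *Smurf1* and 9.51 ± 0.670 for *Tob1*. They were 5.85 ± 0.0789 for *Ppm1a* and 5.77 ± 0.261 for *Smad7*, whose ranges overlapped. *Bambi* followed with 3.17 ± 0.190, *Smad6* with 2.62 ± 0.0983 and *Smad9* with 1.08 ± 0.0659. Apart from *Ppm1a* and *Smad7*, no neighbours in this order had overlapping ranges over the EV samples. With the length of the longest transcript instead, *Ppm1a* moved from rank 4 to 3 and *Tob1* from 3 to 4. On the same scale the receptor-regulated Smads of the BMP branch reached 10.4 ± 0.398 for *Smad5* and 3.10 ± 0.125 for *Smad1*, and the common partner *Smad4* reached 17.6 ± 0.387. With *gdf6Y*, *Smad7* (7.70 ± 0.293, SD, n = 5) passed *Ppm1a* and *Smad6* (3.58 ± 0.465) passed *Bambi* in mean level, while *Smad9* was again last at 1.70 ± 0.0719. With del9 the mean of *Smad7* was also just above that of *Ppm1a* (6.07 and 6.06), with overlapping ranges. With the longest transcript as the length, *Smad7* stayed below *Ppm1a* with *gdf6Y*.

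**Figure D1:**
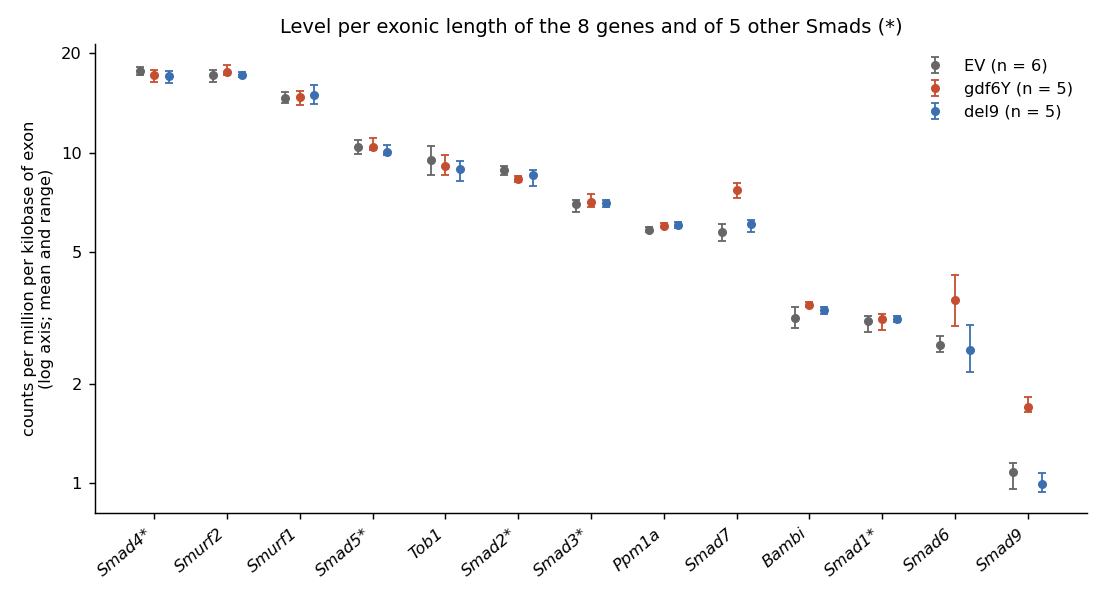
CPM per kilobase of exon (log axis) for the 8 genes and, with an asterisk, 5 other Smads, ordered by their level in EV; points are means and bars the range over the samples of each group. The levels in EV run from 17.6 for Smad4 to 1.08 for Smad9, and the gdf6Y points of Smad7, Smad6 and Smad9 lie above those of both controls.

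Among the 8 genes, the inhibitory Smads and *Smad9* had the higher counts with *gdf6Y*, while the ligases, *Tob1* and *Ppm1a* had log2 fold changes between -0.06 and 0.04. Levels are given below as normalized counts, in which every sample is scaled to the same effective library size, the mean over the 16 samples, so that values of a gene can be compared between samples.

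*Smad6* occupies 63860341 to 63929793 on chromosome 9 (GRCm39, as for all gene positions below). With *gdf6Y*, its normalized counts were 374, 261, 323, 304 and 305 in replicates 1 to 5, and with EV they ran from 218 to 245 with a median of 228. With del9 they were 263, 189.7, 204, 236 and 214. Each *gdf6Y* sample was above all EV samples, but the lowest of them lay just below the highest del9 sample, and replicate 1 was the highest of its group in all 3 groups. The fold change was 1.37 against EV (log2 fold change 0.46, standard error 0.06) and 1.42 against del9 (0.51, standard error 0.07). Without *gdf6Y* replicate 1, these log2 fold changes were 0.39 and 0.44. The coefficient of variation of *Smad6* was 13.0% with *gdf6Y* and 13.1% with del9, where counting alone gives 5.67% and 6.61%, and 3.75% with EV, below the 6.66% of counting alone. The difference in spread was not tested.

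*Smad7* lies on chromosome 18 from 75500374 to 75529006. Its normalized counts with *gdf6Y* were 886, 905, 949, 856 and 911, with EV they ran from 631 to 710.05 with a median of 684, and with del9 they were 673, 713, 735, 699 and 733. Every *gdf6Y* sample was higher than every sample of both controls. The fold change was 1.33 against EV (log2 fold change 0.42, standard error 0.04) and 1.27 against del9 (0.35, standard error 0.04). *Smad7* was even among replicates, with a coefficient of variation of 3.80% with *gdf6Y*, close to the 3.35% of counting alone.

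*Smad9* lies on chromosome 3 from 54662963 to 54708680 and had the lowest counts of the 8 genes. They were 239, 238, 262, 247 and 237 with *gdf6Y*, from 138 to 166 with a median of 156 with EV, and 136, 138, 141, 149 and 154 with del9. No *gdf6Y* sample overlapped either control, and the gap to the nearest control sample was larger than the range of any group. The fold change was 1.57 against EV (log2 fold change 0.65, standard error 0.07) and 1.71 against del9 (0.77, standard error 0.08), which put it above the other 7 genes in both comparisons.

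**Figure D2:**
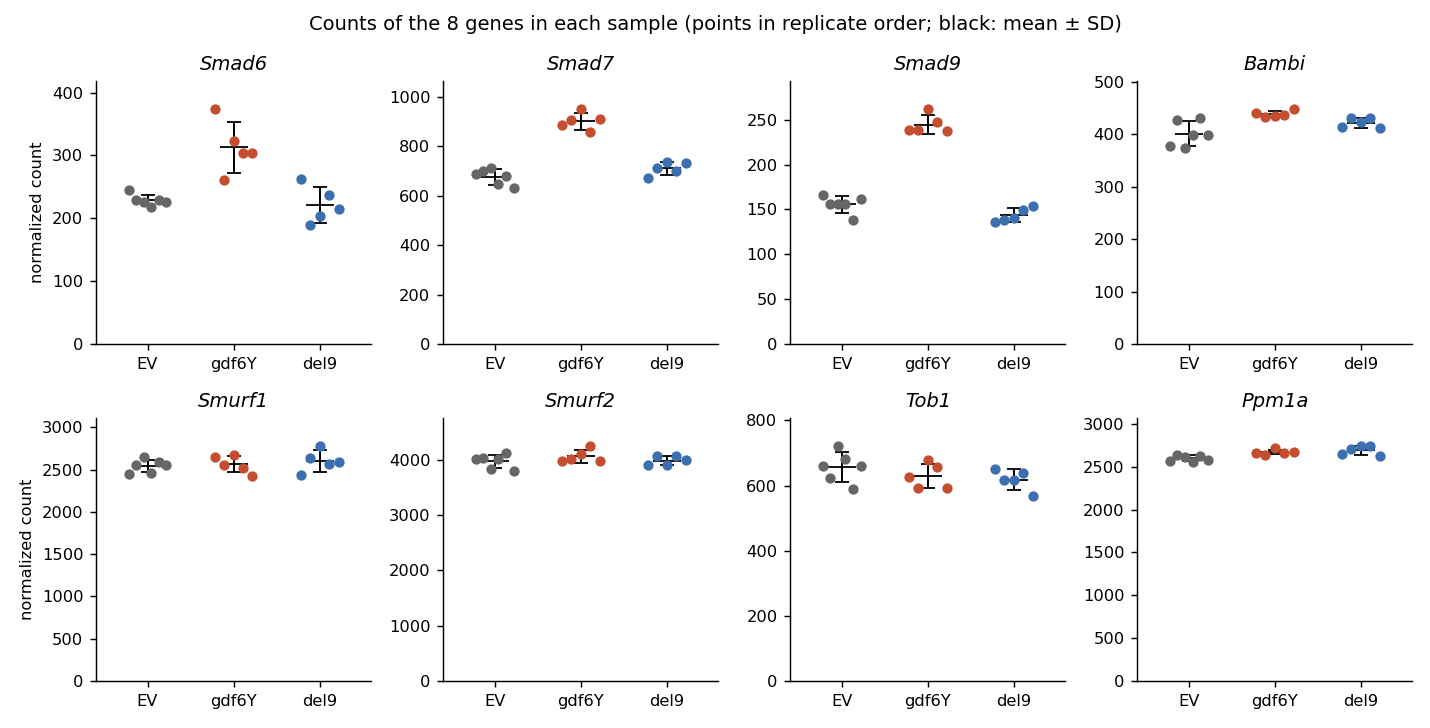
Normalized counts of the 8 genes (linear axes from 0), 1 point per sample in replicate order within EV (n = 6), gdf6Y (n = 5) and del9 (n = 5), with the mean and SD in black. For Smad7 and Smad9 all gdf6Y points lie above both controls, for Smad6 they lie above all EV points and reach down to 261, below the highest del9 point of 263, and the points of Smurf1, Smurf2 and Tob1 overlap in all groups.

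With edgeR's quasi-likelihood test and Benjamini-Hochberg adjustment over all genes, called at an adjusted p below 0.05, 3 of the 8 genes were called higher and 0 lower with *gdf6Y* than with EV, where 1.7% of the 26316 genes tested were called higher and 3.38% lower. The same 3 of 8 genes were called higher and 0 lower against del9, where 0.599% of 25878 genes were called higher and 0.41% lower. Of the 10075 genes that averaged 100 counts or more, as all 8 genes did, 4.29% were called higher and 8.58% lower against EV. Against del9 these shares were 0.933% and 1.03%. The 3 genes called among the 8 are those selected on this rise, so nothing is read from these counts. The 2 comparisons share the *gdf6Y* samples. With the replicate number as a block, which pairs *gdf6Y* and del9 samples, 289 genes were called higher and 372 lower against del9, in place of 155 and 106, and the block changed the call of none of the 8 genes.

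The labels give replicate numbers but no shared batch. Same-numbered *gdf6Y* and del9 samples deviated together (correlations of 0.180 to 0.292), so each gene was compared within a number, with the pairing inferred. *Smad6*, whose groups overlap, was higher with *gdf6Y* in 5 of 5 numbers, with log2 ratios from 0.36 to 0.67. *Smad7* was higher in 5 of 5 numbers, with ratios from 0.29 to 0.40, and *Smad9* in 5 of 5, with ratios from 0.62 to 0.89. *Smad6*, *Smad7* and *Smad9* were selected on this rise, so their signs are a description. The ratios of *Smurf1* ran from -0.09 to 0.12 and those of *Tob1* from -0.06 to 0.14, with both signs among the numbers.

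**Figure D3:**
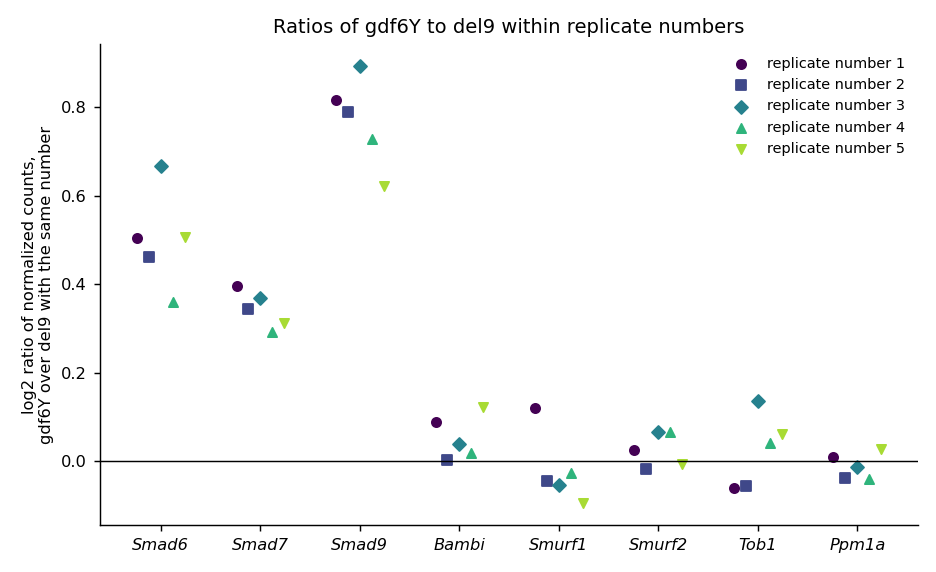
Log2 ratios of normalized counts, gdf6Y over del9, for the 5 replicate numbers (marker shapes) and 8 genes; the line at 0 marks equal counts. Smad6, Smad7 and Smad9 lie above 0 in all 5 numbers, between 0.29 and 0.89, Bambi lies between 0.0023 and 0.12, and Smurf1, Smurf2, Tob1 and Ppm1a fall on both sides of 0.

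*Bambi*, on chromosome 18 from 3507871 to 3516404, was a borderline case. Its normalized counts with *gdf6Y* were 439.6, 432, 434, 437 and 447, with EV they ran from 374 to 431 with a median of 398, and with del9 they were 413, 431, 422, 431 and 411. All 5 *gdf6Y* samples were thus above all samples of both controls, the nearest control sample lying less than 1 normalized count below them. *Bambi* was 1.09-fold higher than with EV (log2 fold change 0.13, standard error 0.05), and did not pass the threshold (edgeR's quasi-likelihood test, adjusted p = 0.147), while its unadjusted p was below 0.05. Against del9 the log2 fold change was 0.06 (standard error 0.06, adjusted p = 0.661). The spread of the 5 *gdf6Y* samples, 1.37% of the mean, was smaller than the 4.81% that counting alone gives.

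Samples without overlap were rare among all genes. Every *gdf6Y* sample was higher than every EV sample for 1.26% of genes and lower for 1.35%, and against del9 for 0.56% and 0.734%. These shares are over all genes tested, most of which averaged fewer than 100 counts. They were not taken over the 10075 genes that averaged 100 counts or more, as all 8 genes did. Besides the 3 genes selected on their rise, *Bambi* and *Ppm1a* had *gdf6Y* samples that were all higher than all EV samples, and *Bambi* also in the comparison with del9.

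The HECT-type ubiquitin ligases *Smurf1* (chromosome 5, 144813300 to 144902866) and *Smurf2* (chromosome 11, 106710889 to 106811583) were near constant. *Smurf1* had normalized counts of 2646, 2559, 2678, 2517 and 2430.1 with *gdf6Y*, from 2454 to 2644 with a median of 2556 with EV, and of 2436, 2637, 2780.1, 2563 and 2594 with del9. The log2 fold change of *Smurf1* was 0.02 relative to EV (95% interval -0.04 to 0.08, edgeR's adjusted p = 0.843) and -0.01 against del9 (-0.08 to 0.05, adjusted p = 0.913). The groups overlap throughout, and these intervals leave out a change of the size seen for *Smad6*, *Smad7* or *Smad9*.

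*Smurf2* had normalized counts of 3983, 4014, 4101, 4251 and 3971 with *gdf6Y*, from 3796 to 4119 with a median of 4012 with EV, and of 3910.4, 4064, 3914, 4061 and 3988 with del9. All groups overlapped. The log2 fold change of *Smurf2* was 0.04 relative to EV (95% interval -0.02 to 0.09, edgeR's adjusted p = 0.570) and 0.03 against del9 (-0.03 to 0.10, adjusted p = 0.685). *Cep95*, on the opposite strand, overlaps *Smurf2* and had a mean count of 298, and reads were counted by strand.

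*Tob1* lies on chromosome 11 from 94102258 to 94106334. Its protein also recruits deadenylases to mRNAs. Normalized counts were 625, 594, 677, 656 and 592 with *gdf6Y*, from 589 to 722 with a median of 659.8 with EV, and 651, 617, 616, 637 and 567 with del9. The groups overlapped, and replicate 5 was the lowest of its group in all 3 groups. The log2 fold change was -0.06 against EV (95% interval -0.15 to 0.03, edgeR's adjusted p = 0.570) and 0.03 against del9 (-0.06 to 0.13, adjusted p = 0.835).

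The phosphatase gene *Ppm1a* lies on chromosome 12 from 72788165 to 72846593, and its exons cover 18031 bases, the longest among the 8 genes. Normalized counts were 2667, 2644, 2719, 2668 and 2678 with *gdf6Y*, from 2554 to 2640.1 with a median of 2598 with EV, and 2649, 2712, 2745, 2742 and 2627 with del9. All *gdf6Y* samples were above all EV samples and lay within the range of the del9 samples. The log2 fold change was 0.04 against EV (95% interval -0.02 to 0.10, edgeR's adjusted p = 0.557) and -0.01 against del9 (-0.07 to 0.06, adjusted p = 0.988). The call against EV changed with the treatment of gene length. With a trend of the ratios on exonic length taken out, the log2 fold change was 0.12 (adjusted p = 0.00163), and with the longest transcript as the length 0.10 (adjusted p = 0.0174).

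**Figure D4:**
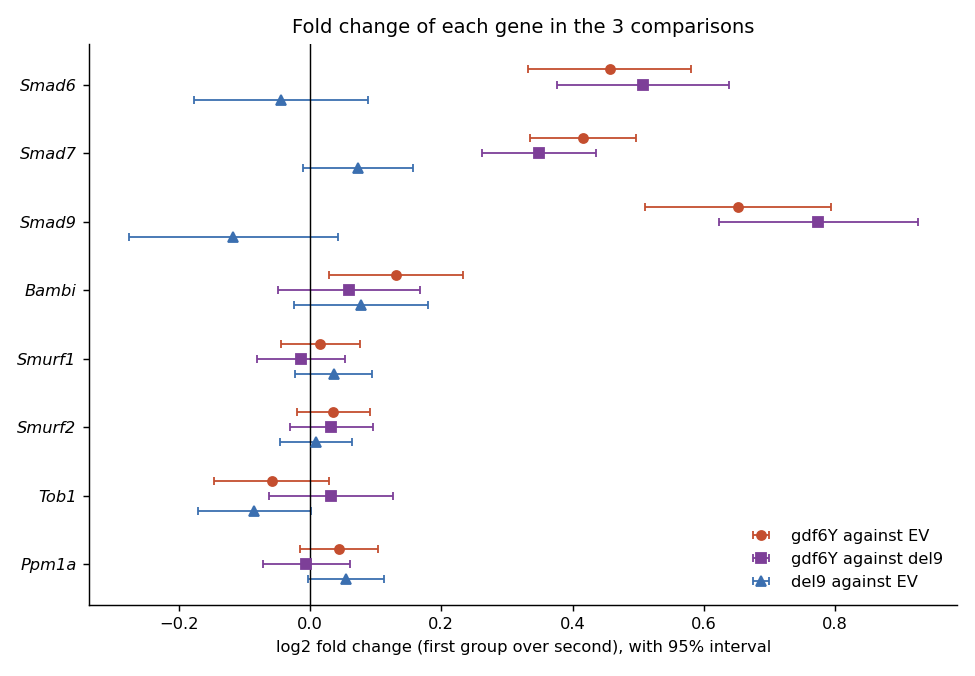
Log2 fold changes of the 8 genes with 95% intervals for gdf6Y against EV, gdf6Y against del9 and del9 against EV; the vertical line marks 0. For Smad6, Smad7 and Smad9, chosen with their rise known, the gdf6Y points lie between 0.35 and 0.77 and are a description, while their intervals for del9 against EV include 0; the interval of Bambi for gdf6Y against EV is 0.03 to 0.23.

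The genes were chosen with values of both controls known, so the comparison of the controls is not independent of the choice for *Smad6*, *Smad7* and *Smad9*. Between del9 and EV, 0 of the 8 genes were called higher or lower. Of the 26226 genes tested, 4.82% were called higher and 4.43% lower. Of the 10075 genes that averaged 100 counts or more, as all 8 genes did, these shares were 12.3% and 9.40%. With edgeR's quasi-likelihood test, 0 of the 8 genes had an unadjusted p below 0.05, and DESeq2 gave 0 by both measures. For none of the 8 genes did all del9 samples lie above or below all EV samples. Of all genes tested, those with few counts included, 2.17% and 1.6% did. The log2 fold change of *Smad6* was -0.04 (95% interval -0.18 to 0.09, edgeR's adjusted p = 0.747), that of *Smad7* 0.07 (-0.01 to 0.16, adjusted p = 0.365) and that of *Smad9* -0.12 (-0.28 to 0.04, adjusted p = 0.473). For *Smad9* the mean was lower with del9 and for *Smad7* higher, each by less than the test could separate. *Bambi* had 0.08 (-0.02 to 0.18, edgeR's adjusted p = 0.447), *Smurf1* 0.04 (-0.02 to 0.09, adjusted p = 0.522) and *Smurf2* 0.01 (-0.05 to 0.06, adjusted p = 0.900). *Tob1* came nearest to the threshold with -0.08 (edgeR's adjusted p = 0.283), followed by *Ppm1a* with 0.06 (adjusted p = 0.30). With the trend on exonic length taken out, both passed, *Tob1* with -0.13 (adjusted p = 0.0439) and *Ppm1a* with 0.11 (adjusted p = 0.00371).

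Ratios between Smads put the counts in proportion, here on the scale of CPM per kilobase of exon. Of the sum of *Smad1*, *Smad5* and *Smad9*, *Smad9* made up 7.45% ± 0.603 in EV samples (mean and SD, n = 6). Its share was 11.1% ± 0.598 in *gdf6Y* samples and 7.04% ± 0.432 in del9 samples (n = 5 each). The *gdf6Y* samples ran from 10.4% to 12.0%, above the 6.42% to 8.13% of the EV samples and the 6.55% to 7.59% of the del9 samples. *Smad1* and *Smad5* still supplied most of this pool. The ratio of *Smad6* plus *Smad7* to this sum was 0.576 ± 0.0240 in EV samples, 0.739 ± 0.0241 in *gdf6Y* samples and 0.607 ± 0.0246 in del9 samples.

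The ratio of *Smad7* to *Smad6* was 2.21 ± 0.0991 with EV, 2.18 ± 0.292 with *gdf6Y* and 2.44 ± 0.371 with del9, and that of *Smurf2* to *Smurf1* was 1.17 ± 0.0579, 1.19 ± 0.0566 and 1.15 ± 0.0577. Between del9 and EV, none of these 4 ratios differed beyond the spread (exact permutation test over samples, two-sided, p = 0.236 for the *Smad9* share, 0.0779 for *Smad6* plus *Smad7*, 0.169 for *Smad7* to *Smad6* and 0.571 for the Smurfs). After Benjamini-Hochberg adjustment over the 4 ratios, the exact permutation p was 0.315, 0.312, 0.315 and 0.571. The 462 arrangements of the samples allow a p as small as 0.00216. For the ratios that hold *Smad6*, *Smad7* or *Smad9*, these tests are not independent of the choice of those genes. The size of each ratio depends on the length used, and with the longest transcripts the *Smad9* share was 5.91% with EV, 8.90% with *gdf6Y* and 5.54% with del9.

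**Figure D5:**
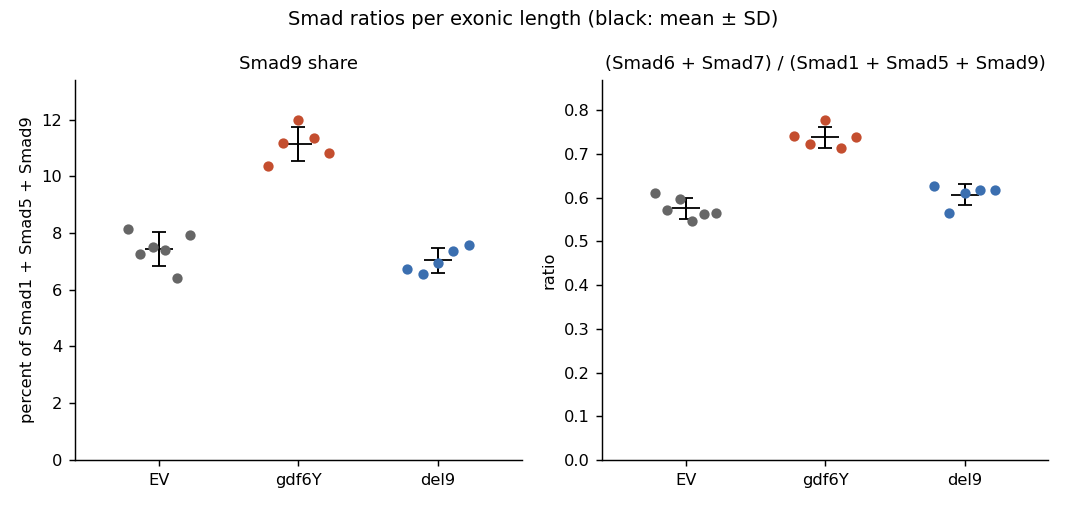
Smad9 as a percent of Smad1, Smad5 and Smad9 (left) and the ratio of Smad6 plus Smad7 to Smad1, Smad5 and Smad9 (right), per exonic length, 1 point per sample with the mean and SD in black. The gdf6Y samples (10.4% to 12.0%, and 0.714 to 0.777) lie above all EV and del9 samples in both panels.

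Other genes of the pathway are given by list. Of the genes averaging 100 counts or more, 4.29% were called higher and 8.58% lower with *gdf6Y* than with EV. Against del9 these shares were 0.933% and 1.03%, and between del9 and EV 12.3% and 9.40%. The numbers of calls per list below were not tested against these shares. Among the 5 receptor-regulated and common Smads outside the 8 genes, 0 were called in any of the 3 comparisons by edgeR's test, and the 2 most abundant per exonic length, *Smad4* and *Smad5*, had log2 fold changes of -0.04 and 0.01 against EV (adjusted p = 0.570 and 0.951). *Smad2*, named after its values were seen, had -0.08 (95% interval -0.14 to -0.02, adjusted p = 0.101), and all its *gdf6Y* samples were below all EV samples. The median log2 fold change of the 5 was 0.01 against EV, 0.02 against del9 and -0.05 for del9 against EV, while that of all genes tested was between -0.01 and 0.01 in the 3 comparisons.

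Of 13 receptors and co-receptors, 3 were called lower with *gdf6Y* than with EV, with a median of -0.06 (-0.05 without 1 gene at 3 reads or fewer in each group). They were *Bmpr2*, the type II receptor for BMPs (log2 fold change -0.24, edgeR's adjusted p = 9.4e-12), *Tgfbr2* (-0.13, adjusted p = 0.0001) and *Tgfbr3* (-0.15, adjusted p = 5.1e-05), which bind TGF-β. *Bmpr2* and *Tgfbr3* were also lower with del9 than with EV (-0.20 and -0.24), and against del9 *Tgfbr2* alone was called lower (-0.14, edgeR's adjusted p = 0.00159). Against EV, *Tgfbr2* lost its call with the longest-transcript length trend (adjusted p = 0.168), and *Tgfbr3* lost it with the stricter filters on low counts (adjusted p up to 0.0600). The *gdf6Y* and EV samples of *Bmpr2* overlapped, and its adjusted p reached 0.0190 over the alternative edgeR and DESeq2 settings.

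Of 18 further intracellular and membrane brakes, 2 were called higher with *gdf6Y* than with EV by edgeR's test, with a median of -0.00. These were the phosphatase gene *Ctdsp1* (0.12, adjusted p = 0.0157) and *Pmepa1* (0.09, adjusted p = 0.0448), which encodes a membrane protein that sequesters Smads. Against del9, *Skil*, which encodes the Smad co-repressor SnoN, was called higher (0.12, adjusted p = 0.0268), a call kept in 7 of 11 alternative settings and in 5 of 10 fits with 1 sample left out. Between del9 and EV, *Ctdsp1* (0.12), *Fkbp1a* (0.07) and *Stub1* (0.09) were called higher and the ligase gene *Itch* (-0.09) lower, as was *Ldlrad4* (-0.19), named after its values were seen. In that comparison, 12.3% of the genes averaging 100 counts or more were called higher and 9.40% lower. Against EV, *Pmepa1* kept its call in 8 of 11 alternative settings and in 3 of 11 fits with 1 sample left out, and *Ctdsp1* in 9 of 11 and 9 of 11, being lost with both length trends (adjusted p up to 0.108). For del9 against EV, *Stub1* kept its call in 1 of 11 alternative settings and in 3 of 11 fits with 1 sample left out. These numbers were 7 and 3 for *Fkbp1a*, 7 and 5 for *Itch*, 8 and 3 for *Ldlrad4* and 9 and 11 for *Ctdsp1*. The changes of these brakes were thus smaller than those of *Smad6*, *Smad7* and *Smad9*, and the difference was not tested.

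Of 6 genes whose products relieve the brakes, among them *Rnf111* and *Stambp*, 0 were called in either *gdf6Y* comparison by edgeR's test, and *Usp11*, a deubiquitinase gene, was called lower with del9 than with EV (-0.17, adjusted p = 0.0316; called in 5 of 11 alternative settings and in 4 of 11 fits with 1 sample left out). Of 9 secreted antagonists tested, *Nbl1* was called higher with *gdf6Y* than with EV (0.19, adjusted p = 0.00296). *Fst*, which encodes the activin and BMP binding protein follistatin, was called lower with *gdf6Y* than with del9 (-0.29, adjusted p = 2.3e-06, called in 8 of 11 alternative settings) and higher with del9 than with EV (0.44, adjusted p = 2.1e-18), where *Nbl1* (0.15) and *Fstl3* (0.10) were also called higher. With 1 sample left out, *Nbl1* kept this call in 6 of 11 fits and *Fstl3* in 5, and *Fstl3* in 3 of 11 alternative settings. The samples of *Fst* overlapped between the groups in both comparisons that called it. *Nog* and *Cer1* had no reads.

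Of 10 BMP target genes tested, 5 were called higher with *gdf6Y* than with EV, and this list was also chosen with its rise known. Of the 10, 3 had at most 3 reads in each group, and the other 7 had a median log2 fold change of 0.72. They were *Id1* (0.90), *Id2* (0.84), *Id3* (0.72), *Atoh8* (1.58) and *Msx1* (0.25), and the uncalled values were 0.03 for *Msx2* and -0.08 for *Runx2*. Against del9, 4 of them were called, with 0.65 for *Id1*, 0.70 for *Id2*, 0.69 for *Id3* and 1.45 for *Atoh8*. The log2 fold changes of *Smad6*, *Smad7* and *Smad9* were thus below that of *Id3* against EV, and that of *Smad9* was above it against del9. Between del9 and EV, *Id1* was called higher (0.26, edgeR's adjusted p = 2.6e-10), as was *Id2* (0.15, adjusted p = 0.0412, called in 4 of 11 alternative settings and in 5 of 11 fits with 1 sample left out), and *Runx2* lower (-0.16, adjusted p = 9.5e-05). *Id1* and the inhibitory Smads therefore differed in their calls between the controls, and the difference between these genes was not tested.

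Of the 8 interferon-stimulated genes, 6 were called lower with *gdf6Y* than with EV, with a median of -0.22. Examples are *Rsad2* (-0.39), *Ifit3* (-0.43), *Oasl2* (-0.24), *Ifit1* (-0.25), *Cxcl10* (-0.20) and *Irf7* (-0.13). Between del9 and EV, 7 of the 8 were called lower, and 0 were called between *gdf6Y* and del9 (median 0.01). The call of *Cxcl10* for *gdf6Y* against EV was kept in 7 of 11 alternative settings, and was lost with DESeq2 among others.

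Across the 16 samples, the genes whose pattern was most like that of a member were sought among the 10075 genes whose mean count was 100 or more, by Pearson's r on log2(CPM + 2). As a description, *Smad7* was followed by *Id1* (r = 0.96), *Id3* (0.96) and the netrin receptor gene *Unc5b* (0.94), and ran most opposite to the phosphatase gene *Dusp7* (-0.90). *Smad9* was followed by *Id3* (0.96), *Lxn* (0.94) and *Smad7* (0.91), and also ran most opposite to *Dusp7* (-0.95). *Smad6* was followed by *Nrn1* (0.89), *Lxn* (0.88) and *Tmem86a* (0.86), and ran most opposite to *Zfp36l2* (-0.88). These values hold the differences between groups: after the group means were subtracted, r was 0.49 for *Smad7* with *Id1*, 0.27 for *Smad9* with *Id3*, -0.08 for *Smad9* with *Lxn* and 0.59 for *Smad6* with *Nrn1*. Samples share library depth and scaling, so such values are not independent of each other.

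*Bambi* and *Ppm1a* had other neighbours. *Bambi* was followed by *Rad51ap1* (r = 0.91), *Anxa3* (0.86) and *Ugdh* (0.85), with *Rhbdf2* as the most opposite gene (-0.89), and with *Rad51ap1* r was still 0.89 after the group means were subtracted. *Ppm1a* was followed by *Rpl7l1* (0.87), *Crtap* (0.87) and *Psmc1* (0.86), with *Atxn2l* as the most opposite gene (-0.85). Among the 8 genes, r was 0.76 between *Smad6* and *Smad7*, 0.84 between *Smad6* and *Smad9* and 0.91 between *Smad7* and *Smad9*, which the choice of these genes for the same rise builds in. After the group means were subtracted, these values were -0.22, 0.06 and 0.20.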

How the data were processed

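RNA-Seq counts of 16 TM4 samples were used. The authors extracted unique molecular identifiers with UMI-tools, aligned reads with STAR 2.7.10a to GRCm39, removed PCR duplicates and counted uniquely mapped reads by strand with featureCounts 2.0.3. The deposited values are raw counts per gene, whole numbers without normalization, for 56748 genes. Poly(A) RNA was enriched from 300 ng of total RNA. According to the study's reporting summary, 1 sample each of *gdf6Y* and del9 was excluded for low quality. The legend of the study's heatmap states more *gdf6Y* samples than were available here. Groups and replicate numbers came from the sample titles. Separate cultures are not stated, so the spread between these samples may be technical. The fit also pools variance across genes, so its standard errors, intervals and p-values do not measure each gene's own spread alone. For *Smad6* against del9, the standard error was 0.067 in the main fit. It was 0.0986 with DESeq2 and 0.0915 with the filterByExpr filter on low counts. No pair of samples in a group was as alike as sampling noise (chi-square per degree of freedom 1.41 to 11.4 over 35 pairs).

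Genes without a single count among the samples compared were dropped, and the rest were scaled with TMM and compared with the quasi-likelihood test of edgeR 4.0.16 in R 4.3.3, 2 groups per model and without covariates, with Benjamini-Hochberg adjustment and a threshold of 0.05. Each standard error is the log2 fold change divided by the root of its F statistic. The steps were also run on simulated counts with known changes. These counts held no shared replicate deviations and no length trend, so the run does not bear on either. DESeq2 1.42.0 and other settings were alternatives. The GENCODE annotation of GRCm39 supplied symbols, positions and lengths for 56017 identifiers and is a different release from the Ensembl annotation that the study's methods name for the alignment, so positions, lengths and the length trends may differ.

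Samples with the same replicate number were checked for shared deviations from the mean of each group, using 12584 genes. The correlation exceeded 0.1 in 5 of 5 numbers between *gdf6Y* and del9 (0.180 to 0.292), and 8 of 10 samples correlated best with their own number. There the numbers were taken to pair the samples, which the labels do not state.

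The 8 genes, the gene lists and the tests were chosen with earlier results of these data known. Of each list, the genes called in any comparison were named, at most 6 by smallest adjusted p, or else the 2 most abundant. For *Smad6*, *Smad7*, *Smad9* and genes without overlap between groups, the 3 most alike and the single most opposite gene were named.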

Additional observations from a re-analysis of the deposited data

Results flagged for a closer look

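Of 36 groups of values, 2 held a sample far from the others, where chance gives about 1.8 (1 in 20). For *Smad9* in EV, replicate 5 had 138 normalized counts and the others 156 to 166, a gap of 0.649 of the range of the group. For the ratio of *Smad6* plus *Smad7* to *Smad1*, *Smad5* and *Smad9* in del9, replicate 2 was at 0.564 and the others at 0.611 to 0.626, a gap of 0.762 of the range. Without EV replicate 5, the log2 fold change of *Smad9* against EV was 0.62 with *gdf6Y* and -0.15 with del9.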

How the results depend on the processing

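Over the 264 log2 fold changes of the 8 genes under other settings, 251 kept their direction and their side of the threshold, and with 1 sample left out 253 of 256 did. *Ppm1a* passed the threshold with the length trend, against EV with *gdf6Y* (0.1228; 0.1009 with the longest transcript, chosen after seeing the data; 0.1263 with block and trend) and with del9 (0.11, 0.0933 and 0.1139), and so did *Tob1* for del9 against EV (-0.1285; -0.1278 with block and trend). Between del9 and EV, 1 gene was then called higher and 1 lower with the trend, 1 and 1 with block and trend, and 1 higher with the longest transcript. Signs turned for values near 0: *Ppm1a* against del9 (8.328e-05 with at least 10 counts in every sample, 0.0152 with the trend, 0.008313 with the longest transcript, 0.01458 with block and trend) and *Smurf2* for del9 against EV (-0.002718 with the block). With 1 sample left out, *Smurf1* against del9 ran from -0.03818 to 0.004813 (without del9 replicate 3), *Smurf2* for del9 against EV from -0.004549 (without EV replicate 6) to 0.0173, and *Smad6* for del9 against EV from -0.1182 to 0.006998 (without del9 replicate 2).

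Numbers of genes called moved more. With the replicate block, 821 genes were called higher against EV (812 with the trend), and against del9 289 higher and 372 lower (328 and 311 with the trend). The block changed no other call of the 8 genes. EV replicate 6 has no partner and adds nothing to the blocked difference. Against EV the correlation exceeded 0.1 in 4 of 5 numbers for *gdf6Y* and in 4 of 5 for del9, and 6 and 3 of 10 samples correlated best with their own number, so the block there is a hint. With the longest transcript, 527 genes were called lower against EV. Against del9, DESeq2 called 48 higher and 33 lower, filterByExpr 26 and 19, a minimum of 10 counts in every sample 25 and 19, and the edgeR 4 dispersion 59 lower. Leaving out 1 sample gave 235 to 718 genes higher and 559 to 1033 lower against EV (235 and 559 without *gdf6Y* replicate 5, 289 higher without replicate 3, 718 higher without replicate 1), and 94 to 243 higher and 66 to 198 lower against del9 (94 and 66 without del9 replicate 2, 243 and 198 without del9 replicate 1, 197 lower without *gdf6Y* replicate 1). The cause was not tested. At counts near 156, as for *Smad9* with EV, counting alone gives a variation of 8.08%, which limits small changes.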
